A study of Mus musculus with 4 samples.

Results

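The genes described here are 3 immediate early response genes (IER2, IER3 and IER5), ARC, and the protein kinase genes SGK, PIM1 and PIM2. They were chosen by name: every non-control probe whose gene name on the array was one of these 7 was taken. This gave 9 of the 41000 probes, with 2 probes each for IER2 and IER5, and 7 of the 18760 named genes on the array. All 7 genes passed the filter on dim probes, and all 9 probes were well above background in both conditions on 4 of 4 arrays.

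The cells were H460, an established human lung carcinoma line, grown in medium with heat-inactivated fetal bovine serum. One group received farnesol (FOH), an isoprenoid alcohol, at 250 µM for 4 h, and the other received the vehicle dimethyl sulphoxide (DMSO). The experiment was done in duplicate, and each pair of farnesol and vehicle RNAs was hybridised to 2 two-colour arrays with the dyes exchanged, so that 4 arrays hold 2 replicates. The organism label of the samples names the mouse, whereas the protocols describe a human line and the RefSeq entries of the probes are human.

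Immediate early genes are transcribed within minutes of a stimulus without new protein synthesis, mostly through transcription factors such as SRF, CREB and NF-kappaB that are already present in the cell. IER2, IER3 and IER5 encode small proteins without enzymatic activity that act in transcription, survival signalling and the heat shock response. SGK (now SGK1) and the PIM kinases are serine/threonine kinases whose activity depends to a large degree on how much transcript is made: SGK on serum, glucocorticoids and osmotic stress, the PIM kinases on cytokines that signal through JAK and STAT. Both kinase families share survival substrates with AKT.

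Per array and dye, 82.7% to 93.0% of spots exceeded background by the scanner software's test. Dye-swapped arrays of one RNA pair correlated across features at r = 0.943 and 0.942, against 0.634 to 0.684 between replicates. Features are not independent. All 10 markers of lung epithelium and carcinoma were well above background on all arrays. Their summed intensity was 92412 to 99407 in vehicle and 89851 to 98190 in farnesol. Much of this sum came from VIM, S100A6 and ANXA2 (means of 9785, 28620 and 14723 in vehicle), which are not specific to epithelium. For 10 leukocyte markers, of which 8 also exceeded background on all arrays, the sum was 2144 to 2874 in vehicle and 2224 to 3143 in farnesol. For 10 fibroblast and endothelial markers the sum was 959 to 1209 in vehicle and 1017 to 1335 in farnesol, with 7 above background on all arrays and PDGFRB on none. These sums compare the conditions within a list, not the lists with each other, since probes differ in brightness. The part of such signal in the ratios below was not tested. In such bulk RNA, fewer cells of one kind and less RNA per cell cannot be told apart.

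The data separate these 7 genes. With farnesol, IER2, IER3 and ARC exceeded vehicle by 2-fold or more in each replicate and in the same direction on all 4 arrays, with mean ratios of 24.5-fold, 15.5-fold and 9.10-fold. Saturated farnesol spots on 3 of 4 arrays limit the ratio of IER2, which may be too low. IER5 was clearly higher in replicate 2, and in replicate 1 by only 1 of its 2 probes. PIM1 was 1.32-fold higher, PIM2 was 1.08-fold lower and SGK was 1.28-fold lower, so that the data do not show an induced SGK or PIM2. By limma's test, with p-values adjusted over all features, none of the 7 passed 0.05 by its brightest probe, in a comparison in which 3 of 17874 named genes did (0.0168%, all higher). The 2-fold rule (2-fold or more in each replicate, one direction on all 4 arrays) took 3 of the 7, all higher, where it took 150 of 17874 named genes as higher (0.839%), 56 as lower (0.313%) and 206 in all (1.15%). At an unadjusted p under 0.05 by limma, 4 of the 7 were higher (IER2, IER3, ARC and PIM1) and 0 lower, against 4.00% and 13.0% of named genes. The 7 genes were chosen with earlier results of these data known, so these counts beside the shares are a description only.

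**Figure D1:**
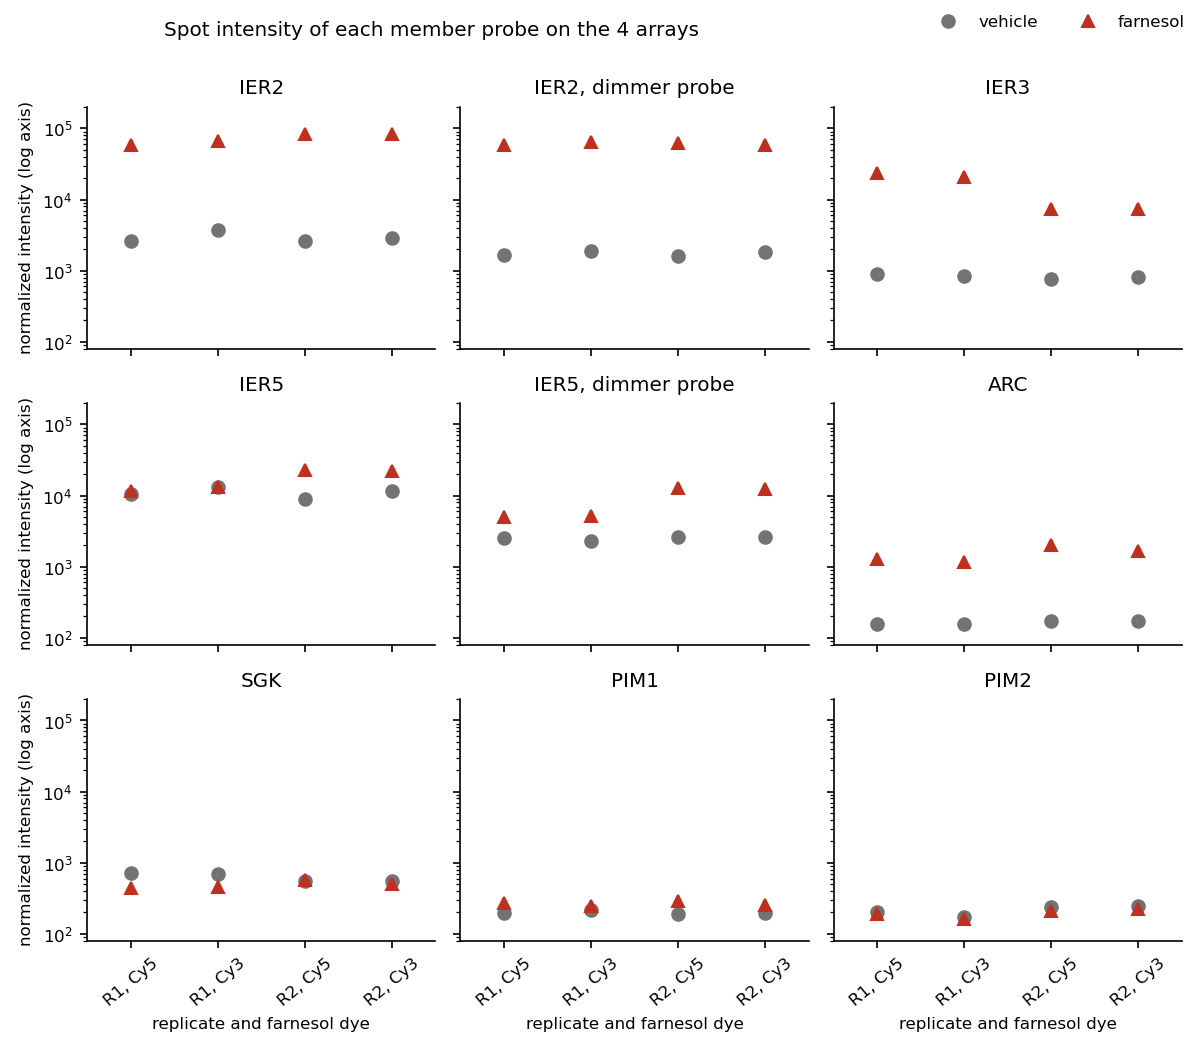
Normalized spot intensity (log axis) of the 9 probes on the 4 arrays, named by replicate (R1, R2) and by the dye that carried farnesol. Grey circles are vehicle and red triangles farnesol; for IER2, IER3, ARC and the dimmer IER5 probe every farnesol value lies above every vehicle value, while for SGK and PIM2 the values overlap.

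IER2 encodes a nuclear protein of the serum response that takes part in transcription. Its brighter probe had intensities of 2599, 3749, 2646 and 2873 in vehicle, in the order replicate 1 with farnesol in Cy5, replicate 1 with farnesol in Cy3, and the same for replicate 2. In farnesol the values were 57943, 65986, 83312 and 84208. The conditions did not overlap. The farnesol values of replicate 2 read higher than those of replicate 1, but with saturated spots this order is uncertain. The farnesol spot was saturated on 3 of 4 arrays, and since a saturated spot reads no higher than the scanner's limit, its ratio may be too low. The log2 ratio of farnesol over vehicle was 4.62 ± 0.44 (SD, n = 2; 24.5-fold), with 4.31 in replicate 1 and 4.93 in replicate 2. By limma it did not pass (adjusted p = 0.182), although its 95% interval ran from 3.99 to 5.24.

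The second, dimmer IER2 probe rose from 1603 to 1920 in vehicle to between 58470 and 64144 in farnesol. Its log2 ratio was 5.12 ± 0.03 (n = 2; 34.7-fold), with 5.10 and 5.14 in the replicates, and it passed in a limma fit over all tested probes (adjusted p = 0.0429). Its farnesol spot was saturated on 2 of 4 arrays, which can lower both the ratio and the spread between replicates on which the test rests, and the part of this in the adjusted p was not tested.

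IER3, also called IEX-1, encodes a stress-inducible regulator of apoptosis and of ERK signalling, and is a target gene of NF-kappaB. In vehicle its intensity was 905, 847, 760 and 804, and in farnesol 23534, 20846, 7442 and 7468. The vehicle values differed little, whereas the farnesol values of replicate 1 were all higher than those of replicate 2. The log2 ratio was 3.96 ± 0.995 (n = 2; 15.5-fold), with 4.66 in replicate 1 and 3.25 in replicate 2 (limma, adjusted p = 0.192). The dye-swapped arrays of a pair differed by only 0.08 on the log2 scale in each replicate, against a gap of 1.41 between the replicates. The 95% interval, 2.58 to 5.34, was the widest of the 9 probes. The authors' deposited table, which covers replicate 1, gives IER3 a ratio of 27.2.

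IER5 encodes a nuclear protein that is induced by heat and radiation, binds the phosphatase PP2A and activates the heat shock factor HSF1. Its brighter probe read 10680, 13015, 8864 and 11479 in vehicle and 11642, 13324, 22914 and 22449 in farnesol. In replicate 1 the conditions differed little, and in replicate 2 farnesol was higher on both arrays. The log2 ratio was 0.62 ± 0.77 (n = 2; limma, adjusted p = 0.516; 95% interval -0.45 to 1.70), from 0.08 in replicate 1 and 1.17 in replicate 2.

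The dimmer IER5 probe gave a larger ratio in both replicates. It read 2496, 2305, 2590 and 2621 in vehicle and 4998, 5093, 12929 and 12497 in farnesol, without overlap. Its log2 ratio was 1.68 ± 0.86 (n = 2; 3.20-fold; 95% interval 0.49 to 2.87), with 1.07 in replicate 1 and 2.29 in replicate 2, and it did not pass in the limma fit over all probes (adjusted p = 0.254). By this probe IER5 also met the 2-fold rule. Both probes thus placed the larger change in replicate 2, the reverse of IER3, and the dimmer probe gave the larger ratio on every array.

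The brighter IER5 probe shared its profile with many other genes. Of the named genes, 249 had log2 ratios within a distance of 0.5 of it over the 4 arrays, against 66 around the same profile with the replicates exchanged. Of those 249 genes, 76.7% were among the brightest 10% of named genes. The dimmer probe, itself at brightness percentile 96.4 among named genes, had 3 genes within that distance. Its ratios were larger, and few genes have such ratios, so the lower count does not show it free of the pattern. These counts were added after the data were seen. The part of this shared pattern in the IER5 ratio was not tested.

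**Figure D2:**
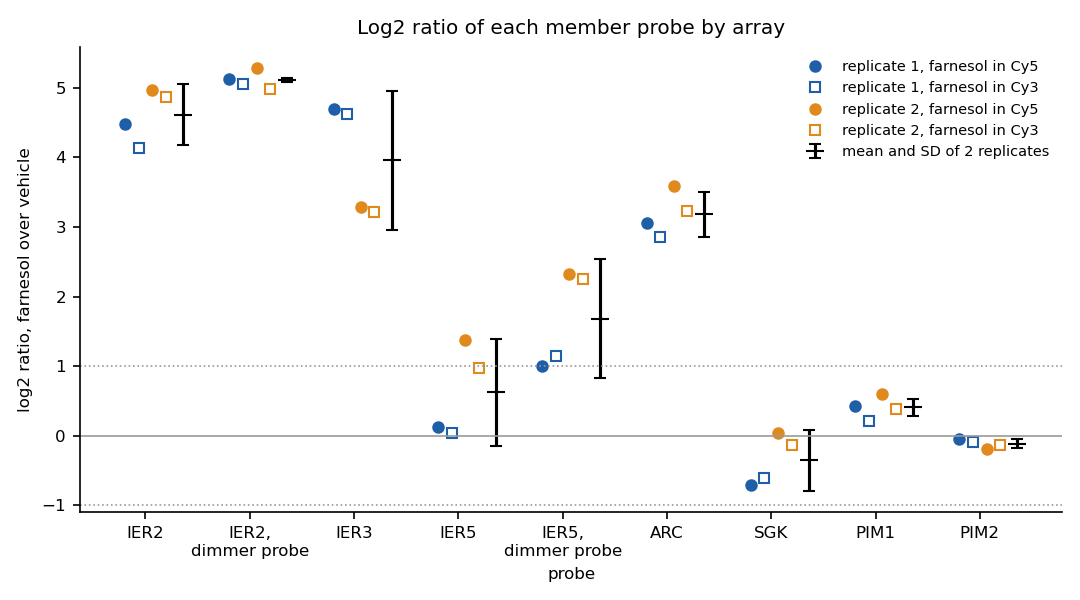
Log2 ratio of farnesol over vehicle for each probe on each array (vertical axis), with replicate 1 in blue and replicate 2 in orange; filled circles have farnesol in Cy5 and open squares in Cy3. The black bar is the mean with the SD of the 2 replicates, dotted lines mark 2-fold; arrays of one pair lie close together, while IER3, both IER5 probes and SGK differ between replicates.

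ARC encodes a cytoskeleton-associated protein best known from neurons, where it is an immediate early gene of synaptic activity and takes part in the endocytosis of glutamate receptors. In these carcinoma cells its vehicle intensity was 157, 159, 170 and 174, low but well above background. In farnesol it was 1301, 1155, 2052 and 1637, without overlap, and higher in replicate 2 than in replicate 1. The log2 ratio was 3.19 ± 0.32 (n = 2; 9.10-fold; 95% interval 2.71 to 3.66), with 2.96 and 3.41 in the replicates (limma, adjusted p = 0.191). With no offset in the background correction, which otherwise shrinks ratios of dim probes, the log2 ratio was 3.68 and passed (limma, adjusted p = 0.0201). The authors' deposited table gives ARC a ratio of 10.7 (replicate 1).

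SGK, the serum- and glucocorticoid-regulated kinase, phosphorylates the ubiquitin ligase NEDD4L and thereby raises sodium channels at the cell surface. Its intensity was 717, 691, 559 and 550 in vehicle and 437, 451, 573 and 499 in farnesol. It was lower with farnesol in replicate 1 and level in replicate 2, where 1 array was slightly higher. The log2 ratio was -0.36 ± 0.43 (n = 2; limma, adjusted p = 0.517), with -0.66 and -0.05 in the replicates. Its 95% interval, -0.98 to 0.26, does not include a 2-fold increase. The authors' deposited table also has SGK lower, with a ratio of 0.611 for replicate 1.

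PIM1, a constitutively active kinase that favours survival and proliferation, read 199, 215, 193 and 197 in vehicle and 268, 249, 291 and 257 in farnesol. Every farnesol value was higher than every vehicle value, by a small margin. The log2 ratio was 0.40 ± 0.12 (n = 2; 95% interval 0.17 to 0.64; limma, adjusted p = 0.229), and 0.55 with no offset. PIM2, a close paralog with overlapping substrates, read 200, 174, 237 and 244 in vehicle and 193, 162, 208 and 223 in farnesol. It was lower with farnesol within each array, but the conditions overlapped. Its log2 ratio was -0.12 ± 0.06 (n = 2; 95% interval -0.31 to 0.08; limma, adjusted p = 0.510). On all 4 arrays, 21.0% of named genes were higher and 24.8% lower, so that one direction on 4 arrays is common among all genes.

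Ordered by the mean log2 ratio, the genes ran IER2, IER3, ARC, IER5, PIM1, PIM2 and SGK. By its brighter probe IER2 changed places with IER3 between replicates, as IER3 was higher in replicate 1 (4.66 against 4.31) and lower in replicate 2 (3.25 against 4.93). By its dimmer probe (5.10 and 5.14) IER2 was above IER3 in both. Saturation may have lowered the IER2 ratios, so that its change of places with IER3 is uncertain. IER3 and ARC also changed places, since ARC had 3.41 in replicate 2. PIM2 and SGK did so as well. IER5 and PIM1 changed places by the brighter IER5 probe only, and the dimmer one (1.07 and 2.29) was above PIM1 (0.32 and 0.49) in both replicates. IER2 was above ARC in both replicates, and ARC was above both IER5 probes in both. These are ratios, and levels were not compared between genes, since probes differ in how brightly they bind.

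**Figure D3:**
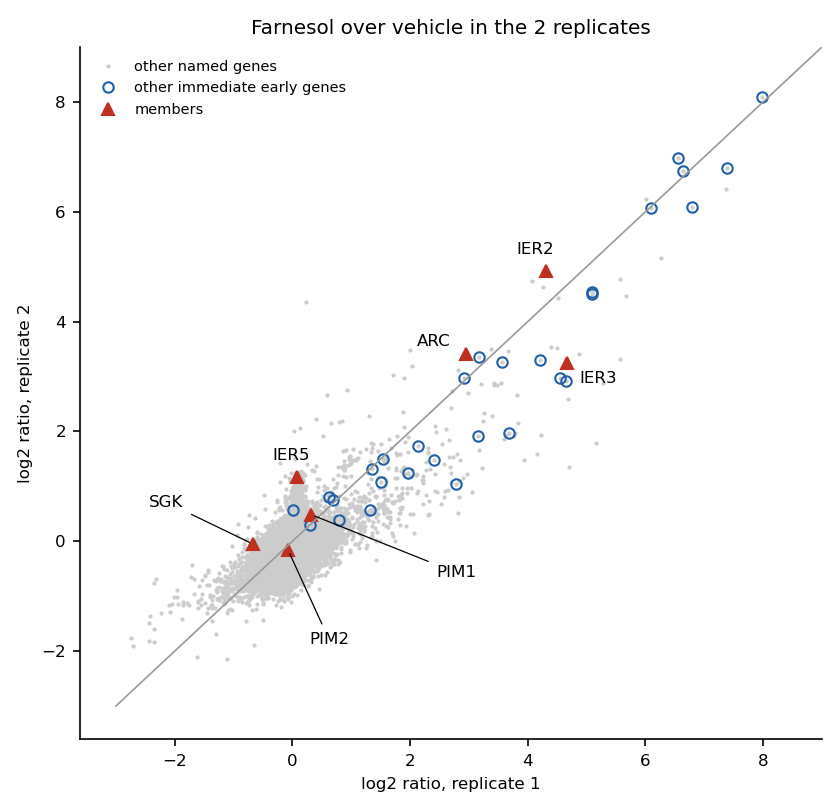
Log2 ratio of farnesol over vehicle in replicate 1 (horizontal) against replicate 2 (vertical) for the 17874 named genes (grey), 29 other immediate early genes (open blue circles) and the 7 genes of interest (red triangles, named; IER2 and IER5 by the brighter probe). The line marks equal ratios; IER2 and ARC lie near it, IER3 lies toward replicate 1 with many immediate early genes, and IER5 lies toward replicate 2.

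Genes with nearly the same 4 log2 ratios were sought by Euclidean distance over the 4 arrays, each gene by its brightest probe. The farnesol spot of the brighter IER2 probe was saturated on 3 of 4 arrays, so its profile is uncertain. Around the dimmer IER2 probe, 0 named genes lay within a distance of 0.5. For IER2 the nearest were CXCL1 (distance 0.479; log2 ratio 4.45 ± 0.27), a chemokine, GADD45B (0.583; 4.40 ± 0.47), a growth arrest and stress gene, and SAT (0.783; 4.48 ± 0.06), which acetylates polyamines. IER3 lay nearest to HERPUD1 (0.386; 4.14 ± 1.03), of the ER membrane, DUSP5 (0.430; 3.76 ± 1.11), a phosphatase of ERK, and NFKBIA (0.460; 4.01 ± 0.70), the inhibitor of NF-kappaB. That these share the replicate pattern of IER3 follows from how they were chosen. ARC lay nearest to KLF2 (0.327; 3.26 ± 0.12), a zinc finger transcription factor, DNAJB1 (0.525; 2.96 ± 0.22), a co-chaperone of HSP70, and CD83 (0.625; 3.44 ± 0.09), a surface protein of activated immune cells. The other KLF2 probe gave only 0.19.

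For the other genes the profile was a common one, so that the nearest genes are few among many. Within a distance of 0.5 there were 395 named genes around SGK, 689 around PIM1 and 11476 around PIM2. Around the brighter IER2 probe, IER3 and ARC there were 1, 3 and 1. The nearest genes were MGC15668, MGC3196 and GSC for SGK, LRRC2, CTEN and RNF127 for PIM1, and CRYZL1, ORC1L and RHBDL7 for PIM2. For the brighter IER5 probe they were CDH24, PCSK1N and CTBP1.

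Close relatives had ratios mostly near 0. Of 11 tested, 0 passed limma's test, and their median log2 ratio was -0.06, against 0.01 over all named genes. The 2-fold rule took 1 as higher, against 0.839% of named genes. That gene was PIM3, the remaining PIM kinase, at 1.67 ± 0.64 (n = 2), with 2.12 in replicate 1 and 1.22 in replicate 2. It was thus the PIM family member with the largest ratio. AKT2, a kinase of the insulin pathway, had -0.45 ± 0.02 (-0.28 from its other probe), and RPS6KA3, the ERK-activated kinase RSK2, -0.50 ± 0.62 (-0.23 from its other probe). IER3IP1, a small ER protein, was counted in this list, although it is named for an interaction with IER3 and is no paralog. It had -0.18 ± 0.17, with -0.31 and -0.44 from its other probes. The SGK relatives SGK2 and SGKL, picked after their values were seen, had -0.03 and -0.09.

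Other immediate early genes had far larger ratios than the kinases. Of 29 tested, 23 met the 2-fold rule as higher and 28 were higher on all 4 arrays, with a median log2 ratio of 2.83. Over all named genes these shares were 0.839% and 21.0%. By limma's test 3 rose, namely EGR1 (8.03 ± 0.08, n = 2), a zinc finger factor, JUN (6.69 ± 0.07), of AP-1, and NR4A1 (6.08 ± 0.02), an orphan receptor whose other probe gave 0.25 (limma, adjusted p = 0.0341 for each). ATF3 (7.09 ± 0.42, and 2.90 from its other probe) and FOS (6.76 ± 0.30) did not pass. IER2, IER3 and ARC had ratios above the median of these 29 genes, and IER5, PIM1, PIM2 and SGK below it. These genes were listed with earlier results of the same data known, so their direction is a description.

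Among the factors that drive immediate early genes, those around SRF and CREB, which act mainly through phosphorylation, had RNA ratios mostly near 0. Of 18 regulators around SRF and CREB, 0 passed limma's test or the 2-fold rule, with a median of -0.01. CREM, which encodes CREB-like activators and repressors, had 1.05 ± 0.86, with 0.05 to 1.07 from its other probes. MAPK14, the p38 kinase, had -0.71 ± 0.29 (-0.09 from its other probe), SRF itself 0.47 ± 0.22 (0.17 and 0.11 from its other probes) and MEF2D 0.34 ± 0.27 (0.07 from its other probe).

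Around IER3 and IER5, 25 genes of NF-kappaB, PP2A and the heat shock response were tested. Of these, 6 met the 2-fold rule as higher, against 0.839% of named genes, and 0 passed by limma. NFKBIA (4.01 ± 0.70), TNFAIP3 (2.85 ± 1.31, and 0.82 from its other probe), which edits ubiquitin on NF-kappaB signalling proteins, and NFKBIE (2.19 ± 0.85), another inhibitor, were larger in replicate 1, as was IER3. The median of the other immediate early genes was also larger in replicate 1 (3.16, against 1.98 in replicate 2). This pattern is thus not particular to NF-kappaB genes, and a link to IER3 was not tested. DNAJB1 had 2.96 ± 0.22. The NF-kappaB subunits RELB, NFKB1, NFKB2 and RELA, picked after their values were seen, had 1.99, 0.97, 0.34 and 0.04. The list's median was 0.03, with 10 of its genes higher and 10 lower on all 4 arrays, against 21.0% and 24.8% of named genes. PPP2CA, the catalytic subunit of PP2A picked after its value was seen, had -0.59. HSF1, the partner of IER5, picked in the same way, had -0.14 ± 0.06. The HSF1 targets HSPA1A and HSPH1, also picked after their values were seen, had 0.13 and 0.79 in replicate 1. In replicate 2 they had 2.06 and 2.17, so that the larger ratio was in replicate 2, like IER5. The other HSPA1A probes had mean log2 ratios of 1.59 and 1.45. DNAJB1, of the same list, differed less between the replicates (2.81 and 3.11). The brighter IER5 probe shared its profile with 249 named genes, and a link of these ratios to IER5 was not tested.

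**Figure D4:**
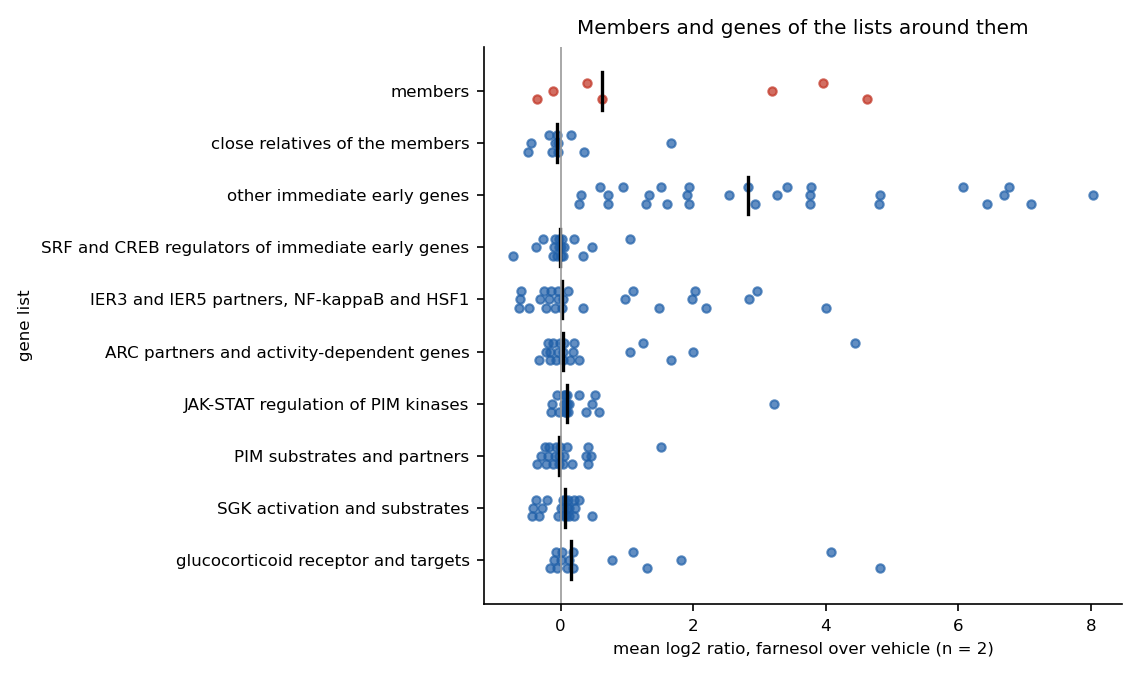
Mean log2 ratio of farnesol over vehicle (horizontal, 2 replicates) of the 7 genes of interest (red, "members") and of the tested genes of each surrounding list (blue), 1 point a gene by its brightest probe. Black bars are medians: 2.83 for other immediate early genes, 0.62 for the 7 genes, and between -0.06 and 0.16 for the remaining lists.

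ARC's partners and other activity-dependent genes of neurons had a median of 0.04, and 0 of 21 passed by limma. By the 2-fold rule 2 were higher, against 0.839% of named genes. These were PTGS2, the inducible cyclooxygenase, at 4.44 ± 1.59 and RGS2, which limits G protein signalling, at 2.00 ± 0.43. PCSK1, a prohormone convertase, had 1.66 ± 1.63 (0.80 from its other probe), and HOMER1, a synaptic scaffold, 1.24 ± 0.44. The neurotrophin gene BDNF, picked after its value was seen, had 0.21 ± 0.17.

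The cytokine pathway that controls PIM transcription had a median of 0.09, and 0 of 20 genes passed by limma. By the 2-fold rule 1 gene was higher, against 0.839% of named genes. That gene was SOCS3, a feedback inhibitor of JAK kinases, at 3.22 ± 0.46 (n = 2), although its other probe gave 0.41. LIF, a cytokine of the IL-6 family, had 0.58 ± 0.52 (0.11 from its other probe), BCL6, a repressor, 0.52 ± 0.26, and IL11 0.48 ± 0.39. The cytokine IL6, picked after its values were seen, had 0.27 ± 0.36 by its brightest probe and 2.99 by its other probe. Of 21 substrates and partners of PIM kinases, 1 was higher by the 2-fold rule, against 0.839% of named genes. By limma 0 passed, and the median was -0.02. MYC, which PIM kinases stabilise, had 1.51 ± 0.03, RUNX1 0.46 ± 0.56 (0.02 from its other probe), CDKN1A, the inhibitor p21, 0.42 ± 0.10 (0.15 from its other probe), and CXCR4, a chemokine receptor, 0.38 ± 0.28.

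The genes around SGK had small ratios. Of 22 kinases, channels and substrates, 0 passed limma's test or the 2-fold rule, and the median was 0.06. PDPK1, the kinase that activates SGK, had -0.43 ± 0.07, with -0.45 and -0.11 from its other probes. MAPKAP1, of the mTORC2 complex that also activates SGK, had -0.41 ± 0.26 (-0.19 from its other probe). FOXO1A, a transcription factor held out of the nucleus by AKT and SGK, had 0.47 ± 0.26 (0.14 from its other probe), and GSK3A -0.37 ± 0.02. Among 16 genes of the glucocorticoid receptor and its targets, 0 passed by limma, and the median was 0.16. The 2-fold rule took 4 of them as higher, against 0.839% of named genes. These were DUSP1 (4.81 ± 0.39), which is also an immediate early gene, MIG-6 (4.08 ± 1.69; 0.89 from its other probe), PER1 (1.82 ± 0.72; 0.08 from its other probe) and CEBPD (1.30 ± 0.38). The receptor's targets FKBP5 and DSIPI, also named GILZ, both picked after their values were seen, had -0.06 ± 0.25 and 0.10 ± 0.02.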

How the data were processed

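The deposited intensity of each spot and channel (mean signal, median local background) came uncorrected, per the file headers, from Agilent Feature Extraction 8.1.1.1, and its processed intensities were background-subtracted and dye-normalized. The deposited log10 ratio is Cy5 over Cy3, per the file headers. Other deposited columns are the software's flags, per the file headers. The authors deposited a ratio of farnesol over vehicle with a p-value per probe, in 2 identical copies headed replicate 1. The log2 of the authors' ratio followed the software's replicate 1 log ratio (r = 0.9999 across probes), which fixes the direction.

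In R 4.3.3 with limma 3.58.1, background was corrected by normexp (offset 50) and ratios by loess within arrays, with control and outlying spots at weight 0. After that, saturated spots were kept and outlying ones dropped. Ratios were turned to farnesol over vehicle, and spots of a probe and then arrays of a pair were averaged (n = 2). Printed intensities are these channels after Aquantile scaling between arrays. Probes entered the test if one condition, the same in both replicates, exceeded background on at least 1 array per replicate, and the brightest probe stood for a gene, which left 28302 features, 17874 with a gene name. Limma tested the mean against 0 (two-sided, Benjamini-Hochberg, threshold 0.05; 1 residual and 1.81 prior degrees of freedom), and 2 replicates limit the precision. Intervals are limma's 95% intervals over all tested probes, not adjusted. The labels do not say how the duplicates were cultured, so p-values measure only the spread between these RNA pairs, which may be technical. The test was checked only on simulated, independent and normally distributed replicates without saturated spots, so the check does not cover saturation or probe effects. The replicates and any handling that the 2 arrays of a replicate shared cannot be told apart.

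The 7 genes and all lists were chosen with earlier results of these data known. Beside the 7, the text names from each list the genes past limma's threshold, up to 4 with the largest ratio among those in one direction on all 4 arrays, and the 3 nearest genes to each of the 7. Gene names follow the array design. No human genome was used here, and no position or sequence is given.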

Additional observations from a re-analysis of the deposited data

How the results depend on the processing

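No direction of the 7 genes reversed under 9 other settings of the processing or in either replicate alone. IER2 passed limma's threshold with offset 0 (4.64), processed signals (4.65), median centring (4.42), its dimmer probe (5.12, chosen after seeing the data) and 4 arrays with the pair as a random block (4.62). Its adjusted p ran from 0.000285 to 0.196. ARC passed with offset 0 (3.68), processed signals (3.70), median centring (3.03) and the random block (3.19), and its adjusted p ran from 0.00056 to 0.196. IER3 passed with the random block alone (3.96). IER5 ran from 0.43 to 1.68, SGK from -0.52 to -0.33, PIM1 from 0.30 to 0.55 and PIM2 from -0.18 to -0.11, and none of these 4 passed. The count past limma's threshold was 3, and 59 with offset 0, 51 with processed signals, 23 with median centring, 5 and 14 with only the arrays with farnesol in Cy5 or in Cy3, and 2260 with the random block (522 higher and 1738 lower, where the 3 were all higher), which takes the arrays of a pair as partly separate (correlation 0.55). The 2-fold count of 206 was 332 with processed signals and 454 to 456 with 1 replicate left out. It was 302 with offset 0 and 176 with a gene's probes averaged. The 206 split into 150 higher and 56 lower, and the 233 with median centring into 124 and 109. Leaving out a replicate leaves no residual degrees of freedom, so these values have no test. IER5 was 1.17 without replicate 1 and 0.08 without replicate 2, and SGK -0.05 and -0.66. No separate paired analysis was possible because each ratio already pairs a farnesol RNA with its own vehicle RNA. PIM1 and PIM2 read 162 to 291 and ARC in vehicle 157 to 174, where the lowest signals well above background were 59 to 70 per channel.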

Other observations

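IER5L, a paralog of IER5, had a log2 ratio of -0.12 in replicate 1 and 0.82 in replicate 2, and so showed its higher value in the same replicate as IER5. Its mean was 0.35 ± 0.66 (n = 2; limma, adjusted p = 0.647). Among immediate early genes that encode no transcription factor, GEM, a small GTPase, had 2.78 and 1.04 in the replicates, RHOB, another small GTPase, 1.51 and 1.07, and PPP1R15A, the stress phosphatase subunit GADD34, 2.13 and 1.74. All 3 were larger in replicate 1, as IER3 was. HBEGF, a growth factor, had 0.63 and 0.80, and CYR61 and CTGF, matricellular targets of SRF and YAP, had 0.0062 and 0.56, and 0.31 and 0.30. These genes were picked after their values were seen.

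The authors' deposited table lists both IER2 probes, the dimmer IER5 probe, and the probes of IER3, ARC and SGK. Its ratio is 35.6 for the dimmer IER2 probe, 20.2 for the brighter one and 2.18 for IER5. The brighter IER5 probe, PIM1 and PIM2 are not among its 7018 probes.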
